A study of Mus musculus with 9 samples.

Results

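The genes of glycolysis, lactate export and the hypoxia response were examined in cultured mouse group 2 innate lymphoid cells (ILC2s), tissue lymphocytes that make the type 2 cytokines IL-5 and IL-13. The set was a list of 35 named genes: the 2 glucose transporters of lymphocytes, the enzymes of glycolysis and their fructose 2,6-bisphosphate regulators, lactate dehydrogenase, the 2 lactate carriers, 2 pyruvate dehydrogenase kinases, and regulators and targets of the hypoxia-inducible factor HIF. All 35 were among the 23234 genes listed for each library, pyruvate kinase under its older symbol Pkm2, and 33 averaged 1 FPKM or more and were tested, among 11014 genes in all. Hk3, a hexokinase of myeloid cells, was at most 0.400 FPKM, and Eno2, the neuronal enolase, was at most 1.68 FPKM; neither was tested. FPKM is fragments per kilobase of transcript, normalised to the mapped fragments of a library, so that levels can be set beside each other between genes.

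RNA was sequenced from 9 libraries, 3 in each of 3 groups. The ILC2s of every group were from the fat-associated lymphoid clusters (FALC) of C57BL/6 wild-type mice and were cultured for 48 h with IL-33, the alarmin that activates them. The groups were IL-33 with IFN-γ, the type II interferon; IL-33 with IL-27, a cytokine of the IL-12 family; and IL-33 alone, with 10 ng/ml given as the dose. They are called the IFN-γ, IL-27 and IL-33 cultures below. Since IL-33 was in every group, the comparisons concern what was added to it, and no culture without IL-33 was analysed here. The labels give neither the age or number of mice nor whether libraries came from separate cultures, so the p-values weigh differences against a spread between libraries that may be partly technical.

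Glycolysis splits glucose into pyruvate in the cytosol. Activated lymphocytes reduce much of the pyruvate to lactate with lactate dehydrogenase, which returns NAD+ to the pathway, and export the lactate with monocarboxylate carriers. When oxygen is low, the prolyl hydroxylases (the Egln genes) no longer mark HIF-1α for destruction, and HIF-1 then induces most of these enzymes, the transporters Slc2a1 and Slc2a3, the exporter Slc16a3, the pyruvate dehydrogenase kinase Pdk1, and targets outside metabolism such as Bnip3 and Vegfa. Cytokine and growth signals raise HIF-1 and MYC activity in lymphocytes with oxygen present too.

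HIF binds the core letters ACGTG or GCGTG, and promoter windows of the members were searched for them. Many members were listed as HIF targets, so a higher share than in all windows may be partly built in. RefSeq windows on build GRCm38.p6, from 250 bases before to 50 after a transcript start, were found for 33 of the 35 members, 1 of them by a synonym, in 49 windows. Slc2a3 and Ndrg1 have no entry. The letters ACGTG or GCGTG, on either strand, were in 79.6% of the member windows and in 43.8% of all 32851 windows, and in at least 1 window of 30 of the 33 genes. ACGTG alone was in 55.1% of member windows against 19.6% of all windows, and GCGTG in 53.1% against 32.4%. CACGTG, the E-box that MYC can bind and which contains ACGTG, was in 12.2% against 7.15%. TTCNNNGAA, the letters bound by STAT factors, was in 4.08% against 8.30%. Member windows were also richer in G and C, with a median of 62% against 52.7%, and the part of this in the counts was not tested. The 250 bases before the start are shown for the lactate exporter, both lactate dehydrogenase genes, the phosphoglycerate mutase gene and a HIF target outside metabolism, which are the genes that the results below turn on. They are written 5′ to 3′ on the gene's strand, and capitals mark ACGTG and GCGTG or their complements CACGT and CACGC.
Slc16a3, chr11:120948817-120949066, plus strand: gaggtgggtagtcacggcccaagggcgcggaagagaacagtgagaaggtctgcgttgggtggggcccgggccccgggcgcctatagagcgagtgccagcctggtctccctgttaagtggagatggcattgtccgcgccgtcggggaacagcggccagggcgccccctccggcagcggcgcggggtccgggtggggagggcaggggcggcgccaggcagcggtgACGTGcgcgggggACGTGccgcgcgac
Ldha, chr7:46845554-46845803, plus strand: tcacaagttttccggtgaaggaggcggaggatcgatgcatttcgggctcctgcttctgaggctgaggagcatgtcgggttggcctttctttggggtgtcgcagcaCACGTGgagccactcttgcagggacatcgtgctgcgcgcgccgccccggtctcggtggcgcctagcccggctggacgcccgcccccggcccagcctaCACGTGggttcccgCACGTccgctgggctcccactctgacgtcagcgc
Ldhb, chr6:142507958-142508207, minus strand: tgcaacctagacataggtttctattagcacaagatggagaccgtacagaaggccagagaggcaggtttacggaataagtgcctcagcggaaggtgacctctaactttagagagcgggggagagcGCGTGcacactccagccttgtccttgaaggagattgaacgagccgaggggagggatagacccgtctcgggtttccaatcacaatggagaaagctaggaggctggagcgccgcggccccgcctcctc
Pgam1, chr19:41911621-41911870, plus strand: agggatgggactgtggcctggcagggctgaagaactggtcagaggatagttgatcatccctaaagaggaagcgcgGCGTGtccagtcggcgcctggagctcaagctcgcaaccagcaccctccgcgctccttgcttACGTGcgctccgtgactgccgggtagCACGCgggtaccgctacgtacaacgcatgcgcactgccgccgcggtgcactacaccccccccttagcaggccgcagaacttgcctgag
Bnip3, chr7:138909507-138909756, minus strand: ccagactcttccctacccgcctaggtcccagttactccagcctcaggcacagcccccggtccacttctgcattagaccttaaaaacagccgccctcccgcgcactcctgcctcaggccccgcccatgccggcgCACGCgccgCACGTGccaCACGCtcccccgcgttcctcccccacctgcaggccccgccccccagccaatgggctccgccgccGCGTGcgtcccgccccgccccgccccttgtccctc
The Slc16a3 window holds 2 copies of ACGTG close to the start, at -27 and -14 bases. Counting both strands, there are 5 matches before the Ldha start, with both copies of CACGTG read on each strand, 5 before that of Bnip3, 3 before that of Pgam1 and 1 before that of Ldhb. These are matches of letters and not measured binding.

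FPKM summed to 628625 to 672534 in a library, and 10504 to 11004 genes reached 1 FPKM. From the spacing of low values, a library held an estimated 873000 to 970000 fragments. At this depth 1 fragment in a transcript of 2 kb is worth 0.516 to 0.573 FPKM, so the members under about 5 FPKM rest on few fragments. By their transcript lengths these were about 1 to 7 in a library for Eno3, 6 to 12 for Pfkfb4, 6 to 35 for Vegfa and 12 to 45 for Mxi1. The 11 ILC2 markers were all above 1 FPKM in every library, and Il5 and Il13, the type 2 cytokine genes, made up 75.0% to 91.5% of their sum. The other 9 summed to 1390 to 1848 FPKM in IFN-γ libraries, 1733 to 2766 FPKM in IL-27 libraries and 1888 to 2799 FPKM in IL-33 libraries. With IFN-γ, Il5, Il13 and Il2ra fell (limma adjusted p = 0.0167, 0.0282 and 0.00495). The other 8, Gata3, Rora, Klrg1 and Thy1 among them, did not pass the threshold without the replicate block described below. With that block Il1rl1 was also called lower with IFN-γ (limma adjusted p = 0.00486, and 0.0240 without IL-33 replicate 3). For IL-27 over IL-33, Il2ra was lower and Thy1 and Icos higher only with the block (limma adjusted p = 0.00509, 0.0320 and 0.0399). Of these, Il2ra alone still passed with the block and without IL-33 replicate 3 (limma adjusted p = 0.0157). The sums were at most 20.4 FPKM for macrophage, 9.3 FPKM for mast cell and 1.8 FPKM for B cell markers and 49.4 FPKM for red cell markers, and the 5 adipocyte markers were at 0 in all. Of 6 T cell markers, Cd4 and Cd5 were at 0 in all and the sum of the list was 28.7 to 102 FPKM, most of it Cd3g. The sum of 8 fibroblast markers was 86.5, 63.7 and 36.2 FPKM in the replicate 3 libraries of the IFN-γ, IL-27 and IL-33 cultures and at most 17.6 FPKM in the other 6. Lum did not follow this, at 1 to 3.2 FPKM in the replicate 3 libraries and 16.85 FPKM in IL-33 replicate 1. There it made up most of the 17.6 FPKM. Nor did Dcn among IL-27 libraries, at 1.17 to 1.30 FPKM. Summed markers of cycling cells were 277 to 538 FPKM in IFN-γ libraries, 441 to 572 FPKM in IL-27 libraries and 435 to 575 FPKM in IL-33 libraries. Among them Mki67 was at 38.2 to 80.7 FPKM in IFN-γ libraries and 95.8 to 133.8 FPKM in IL-33 libraries (limma adjusted p = 0.165, and 0.0180 with the block). Cdk1 was also wholly below, without a call, and Top2a and Ccnb1 overlapped. Of all tested genes 8.65% lay wholly below. The part of these differences in the results below was not tested. Cells of another type, fewer cells of a type and less RNA per cell cannot be told apart in bulk RNA.

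One library stood apart for these genes. IL-33 replicate 3 had the highest value of the 9 libraries for 24 of the 33 tested members (72.7%), against 13.2% of all tested genes. It was highest for all 5 HIF targets outside metabolism, for 5 of 6 tested lower glycolysis genes and for 6 of 9 tested upper ones. Relative to the mean of the other 2 IL-33 libraries it had 19.9 times the level of Egln3, 15.2 times that of Aldoc, 12.8 times that of Ndrg1, 11.1 times that of Slc2a3 and 6.17 times that of Bnip3, but 0.438 times that of Slc16a1 and 0.791 times that of Hif1a. The same division was smaller among IL-27 libraries, where replicate 3 had 7.47 times the Aldoc and 2.29 times the Bnip3 of the others, and smaller again among IFN-γ libraries, at 2.41 and 1.20 times. Egln3, Aldoc and Ndrg1 were at 1.36 to 6.40 FPKM in IL-33 replicates 1 and 2. Aldoc was at 0.629 to 3.11 FPKM in replicates 1 and 2 of the other groups. These multiples are therefore imprecise. Calls that were lost without IL-33 replicate 3 are named below. A fold change without it, where no block is named, still holds the replicate 3 libraries of the other groups.

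**Figure D1:**
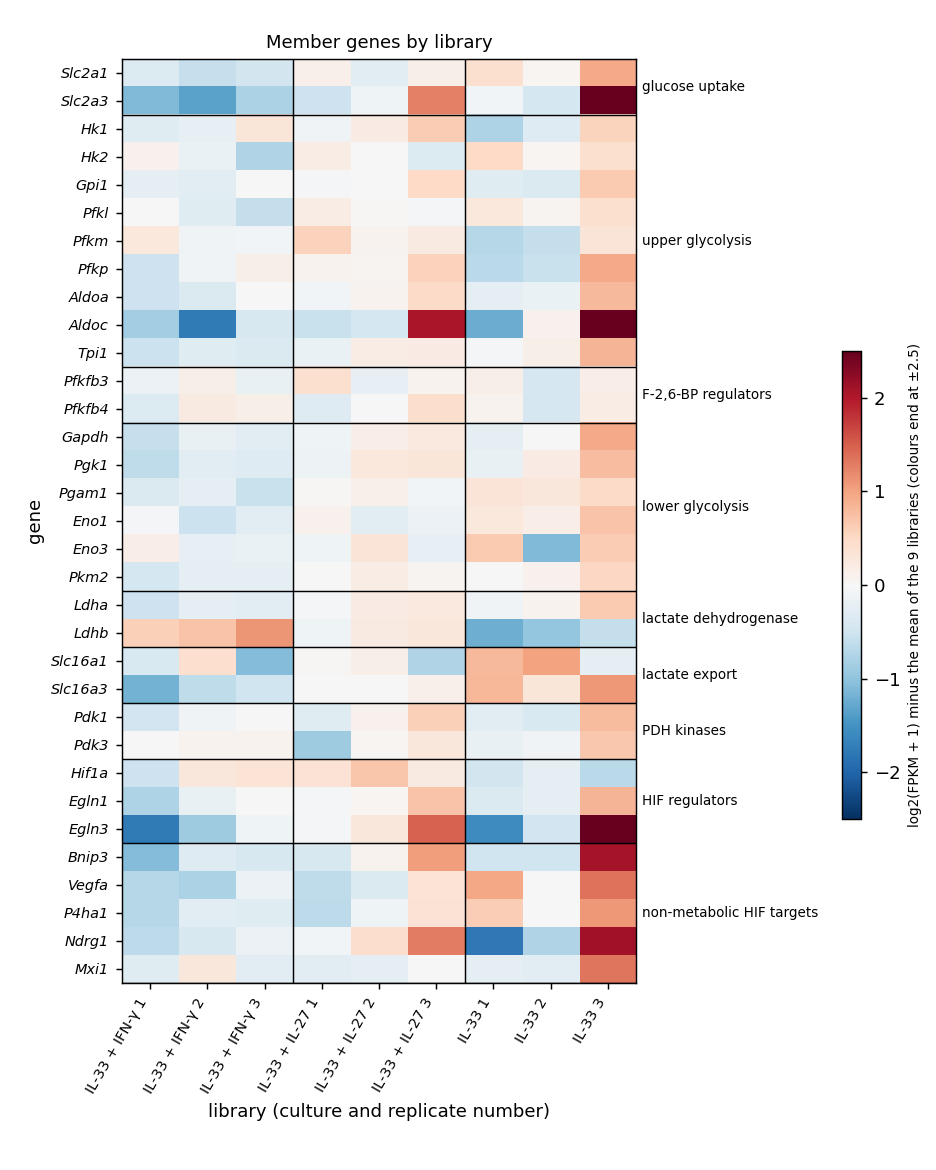
Heat map of the 33 tested member genes (rows, grouped by role) in the 9 libraries (columns, IFN-γ, IL-27 and IL-33 cultures from left to right), where colour is log2(FPKM + 1) minus the gene's mean over the 9 libraries. The rightmost column, IL-33 replicate 3, is the highest for 24 of the 33 genes, and Ldhb runs against most other rows, high in the IFN-γ and low in the IL-33 libraries.

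With IFN-γ the lactate exporter Slc16a3 and the glycolytic enzyme Pgam1 fell and the heart-type lactate dehydrogenase Ldhb rose, and the other 30 tested members did not pass the threshold. These calls come from limma on log2(FPKM + 1) over all 11014 tested genes, with a Benjamini-Hochberg adjusted p under 0.05, a rule that called 0.717% of all genes lower and 2.19% higher. In the direction of change, 28 of the 33 members had a negative log2 fold change, against 5226 of all 11014 tested genes. The median over the members was -0.55 against 0.03 over all tested genes. The median was smaller without IL-33 replicate 3, at -0.10, or -0.32 with the replicate block described next, and was -0.27 without all 3 libraries numbered 3. Within replicate numbers 1, 2 and 3 it was -0.34, -0.20 and -0.98.

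Libraries of the same number deviated together, so the same fit was run with the replicate number as a block. It called 11 members lower and Ldhb higher, where the blocked rule called 4.66% of all genes lower and 6.51% higher. The 11 were Slc2a1, Tpi1, Pgk1, Pgam1, Eno1, Pkm2, Ldha, Slc16a1, Slc16a3, Vegfa and P4ha1. Without IL-33 replicate 3 the blocked fit called 5 members lower, Slc2a1, Tpi1, Pgk1, Pgam1 and Slc16a3, against 2.12% of all genes. Without all 3 libraries numbered 3 it called Slc2a1, Pgam1 and Slc16a3 lower, against 1.15%. Ldhb was called higher in each of these fits, which called 4.31% and 2.92% of all genes higher. All IFN-γ libraries were below all IL-33 libraries for 12 of the 33 members, against 8.65% of all tested genes, and above them for Ldhb alone, against 11.9%. The level was lower in all 3 same-numbered pairs for 17 members, against 21.1% of all tested genes.

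With IL-27 no member passed the threshold in limma (0.118% of all genes were called lower and 0.908% higher), and 6 had an unadjusted p under 0.05, against 9.51% of all tested genes. The median log2 fold change was -0.12 against 0.01 over all tested genes, and without IL-33 replicate 3 it was 0.21, or 0.12 with the block. With the replicate block Ldhb and Hif1a were called higher and none lower, where that rule called 3.37% of all genes higher and 1.78% lower. Leaving out IL-33 replicate 3, the blocked fit called Ldhb and Ndrg1 higher (limma adjusted p = 0.0222 and 0.0464), and 2.49% of all genes. Without all 3 libraries numbered 3 it called no member, and 149 of 10995 genes higher and 32 lower. There the limma adjusted p was 0.0604 for Ldhb, 0.0902 for Hif1a and 0.104 for Ndrg1. IL-27 libraries were all above the IL-33 libraries for Ldhb and Hif1a (8.29% of all tested genes) and all below them for Pgam1, Eno1 and Slc16a3 (5.72%).

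Set directly against each other, IFN-γ and IL-27 cultures gave no call for any member, nor for any gene, in limma. At an unadjusted p under 0.05 there were 483 genes (4.39%), 5 of them members, and the blocked fit called no member, 0.127% of all genes lower and 0.0545% higher. IFN-γ cultures were on the lower side for 30 of the 33 members, against 5260 of all 11014 tested genes. The median log2 fold change of the members was -0.38 against 0.01 over all tested genes. This comparison does not use IL-33 replicate 3 for its fold changes. Within numbers 1, 2 and 3 the medians were -0.39, -0.35 and -0.49. The level was lower in all 3 same-numbered pairs for 25 members, against 15.7% of all tested genes, and IFN-γ libraries lay wholly below IL-27 libraries for 11, against 4.03%. Ldhb was the exception on both measures, higher in all pairs (18.0% of all tested genes) and wholly above (5.50%). The 19 glycolytic and lactate dehydrogenase enzymes together made up 1.05%, 1.13% and 1.20% of the FPKM sum in IFN-γ libraries, 1.40%, 1.60% and 1.64% in IL-27 libraries, and 1.31%, 1.47% and 2.45% in IL-33 libraries, each in the order of replicates 1 to 3. The IFN-γ shares lay below all others. The comparisons share their libraries, so they are not independent of one another.

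**Figure D2:**
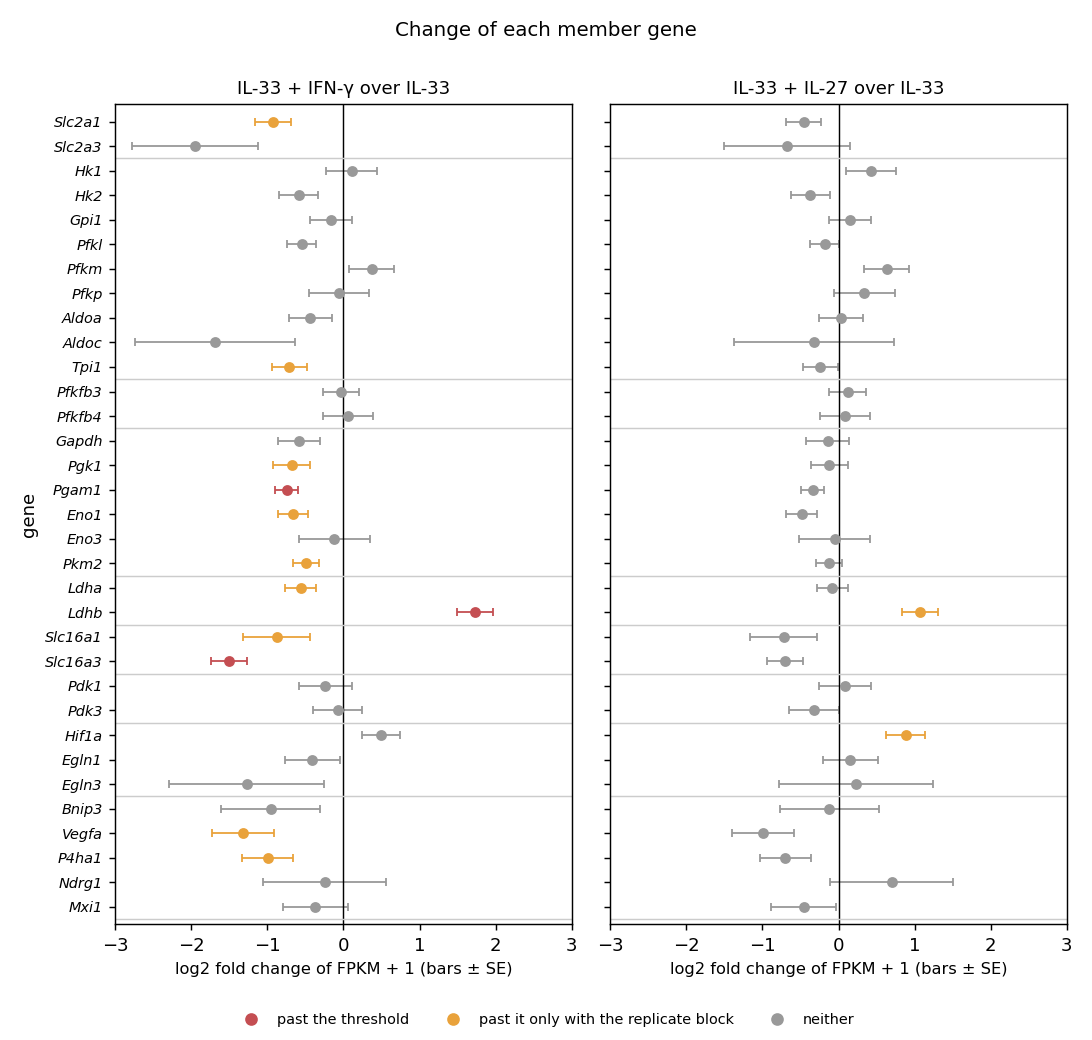
Log2 fold change of FPKM + 1 for each tested member (rows), with limma's standard error as bars, for IFN-γ over IL-33 cultures (left) and IL-27 over IL-33 cultures (right); colour shows whether the gene passed the threshold, passed it only with the replicate block, or did neither. Slc16a3 and Pgam1 on the low side and Ldhb on the high side are past the threshold on the left (-1.51, -0.75 and 1.73), and none is on the right.

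Glucose enters lymphocytes through Slc2a1 (GLUT1) and Slc2a3 (GLUT3). Slc2a1 had 57.6, 48.9 and 53.2 FPKM in the IFN-γ cultures, 80.6, 61.4 and 81.7 FPKM in the IL-27 cultures, and 97.5, 76.3 and 142.6 FPKM in the IL-33 cultures. The IFN-γ libraries were below all others. The log2 fold change of IFN-γ over IL-33 was -0.93 ± 0.23 (SE, n = 3 each), with a limma adjusted p of 0.0709 and of 0.00964 with the block. For IL-27 over IL-33 it was -0.46 ± 0.23 (limma adjusted p = 0.599). Slc2a3 had 6.99, 5.77 and 9.0 FPKM in the IFN-γ cultures, 10.99, 14.9 and 40.0 FPKM in the IL-27 cultures, and 15.4, 11.7 and 150.8 FPKM in the IL-33 cultures. Its IFN-γ libraries were also the lowest, but the spread among IL-33 libraries was wide, and the log2 fold change of -1.96 ± 0.83 did not pass (limma adjusted p = 0.296), nor did the -0.82 without IL-33 replicate 3. GLUT1 made up 85.5% to 89.5% of the summed FPKM of the pair in IFN-γ libraries, 67.1% to 88.0% in IL-27 libraries, and 86.3%, 86.8% and 48.6% in the IL-33 libraries.

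The upper steps take glucose to the triose phosphates. None of their 9 tested genes passed the threshold without the block in any comparison. That rule called at most 0.717% of all genes lower and 2.19% higher, so no call among 9 says little about these steps. The median log2 fold change of IFN-γ over IL-33 was -0.43, or -0.10 without IL-33 replicate 3. Hexokinase traps glucose as its phosphate. Hk1, the housekeeping form, made up 66.3% to 84.5% of hexokinase FPKM in IFN-γ libraries, 68.6% to 84.1% in IL-27 libraries and 51.6% to 74.4% in IL-33 libraries. Hk2, the form induced by growth signals and HIF, had 31.2, 25.6 and 16.8 FPKM in the IFN-γ cultures, 32.8, 29.1 and 22.5 FPKM in the IL-27 cultures, and 41.4, 29.8 and 38.5 FPKM in the IL-33 cultures. The highest IFN-γ library was above the lowest IL-33 library, and the fold change of -0.59 ± 0.26 on the log2 scale did not pass (limma adjusted p = 0.310).

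Phosphofructokinase, the main control point of the pathway, was a mixture of its liver and platelet subunits. Over the 9 libraries Pfkl made up 37.1% to 65.8% of the summed FPKM, Pfkp 28.6% to 53.1% and the muscle subunit Pfkm at most 12.4%. Pfkl was below all IL-33 libraries in all IFN-γ libraries, at 32.3 to 48.9 FPKM against 52.2 to 65.3 FPKM, with a difference of -0.55 ± 0.19 on the log2 scale that did not pass (limma adjusted p = 0.196). Pfkm averaged 9.30 ± 1.43 FPKM with IFN-γ, 11.4 ± 2.21 FPKM with IL-27 and 7.38 ± 3.58 FPKM with IL-33 (SD, n = 3 each), and Pfkp 38.0 ± 8.88, 50.3 ± 10.9 and 44.9 ± 31.1 FPKM. Gpi1, which isomerises glucose 6-phosphate, ranged over 272 to 329 FPKM with IFN-γ, 318 to 462 FPKM with IL-27 and 254 to 515 FPKM with IL-33. Its groups overlapped in each comparison.

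Aldolase was almost wholly Aldoa, with 1031, 1149 and 1463 FPKM in the IFN-γ cultures, 1416, 1579 and 2053 FPKM in the IL-27 cultures, and 1262, 1311 and 2591 FPKM in the IL-33 cultures. In each group replicate 3 was the highest. The log2 fold change of IFN-γ over IL-33 was -0.43 ± 0.28 (limma adjusted p = 0.526), and -0.10 without IL-33 replicate 3. Aldoc, the brain form and a HIF target, was at 0.629 to 3.2 FPKM in IFN-γ libraries, and at 21.9 FPKM in IL-27 replicate 3 and 48.2 FPKM in IL-33 replicate 3 against at most 4.97 FPKM in the other IL-27 and IL-33 libraries. Tpi1, which interconverts the triose phosphates, had 232, 271 and 262 FPKM in the IFN-γ cultures, 301, 380 and 389 FPKM in the IL-27 cultures, and 323, 371 and 608 FPKM in the IL-33 cultures. The IFN-γ libraries were the lowest, by 0.71 ± 0.23 on the log2 scale relative to IL-33 (fold 1.64; limma adjusted p = 0.169, and 0.0275 with the block), and in the blocked fit without IL-33 replicate 3 the log2 fold change was -0.49 (limma adjusted p = 0.0362).

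Pfkfb3 and Pfkfb4 make and break down fructose 2,6-bisphosphate, the activator of phosphofructokinase. Pfkfb3 had 13.4, 16.5 and 13 FPKM in the IFN-γ cultures, 20.0, 12.7 and 15.8 FPKM in the IL-27 cultures, and 16.7, 10.9 and 16.9 FPKM in the IL-33 cultures. The groups overlapped, and its log2 fold changes relative to IL-33 were -0.03 ± 0.24 with IFN-γ and 0.12 ± 0.24 with IL-27. Pfkfb4 stayed between 1.77 and 4.0 FPKM in all libraries.

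The lower steps take the triose phosphates to pyruvate and yield the ATP. With IFN-γ their 6 tested genes all had negative log2 fold changes, with a median of -0.62, or -0.38 without IL-33 replicate 3, and Pgam1 alone passed the threshold. Pgam1 (mm9, chr19:41986361-41993154, plus strand), which moves the phosphate of 3-phosphoglycerate, had 173, 191.5 and 151 FPKM in the IFN-γ cultures, 227.5, 244 and 212 FPKM in the IL-27 cultures, and 279, 273 and 313 FPKM in the IL-33 cultures. The 3 groups did not overlap at all, and IL-27 lay between the others. Pgam1 fell 1.68-fold with IFN-γ, with a log2 fold change of -0.75 ± 0.15 (limma adjusted p = 0.0275, and 0.00647 with the block). The call was lost on leaving out any single IFN-γ or IL-33 library, or IL-27 replicate 2, with the highest adjusted p at 0.113 without IFN-γ replicate 3, while the log2 fold change stayed between -0.83 and -0.66. With IL-27 it was -0.34 ± 0.15 (limma adjusted p = 0.519).

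Gapdh, the first enzyme of these steps, was the most abundant member, at rank 40 among all listed genes by mean FPKM. It had 1314, 1727 and 1640 FPKM in the IFN-γ cultures, 1830, 2196 and 2311 FPKM in the IL-27 cultures, and 1660, 1989 and 3794 FPKM in the IL-33 cultures. Its IFN-γ and IL-33 libraries overlapped, and the log2 fold change of -0.58 ± 0.28 (limma adjusted p = 0.369) was -0.23 without IL-33 replicate 3. Pgk1, which makes the first ATP of the pathway, had 472, 605 and 582 FPKM with IFN-γ, 675, 882 and 899 FPKM with IL-27, and 641, 849 and 1260 FPKM with IL-33. The IFN-γ libraries were all below the others, and the log2 fold change relative to IL-33 was -0.68 ± 0.24 (limma adjusted p = 0.215, and 0.0217 with the block). In the blocked fit without IL-33 replicate 3 it was -0.48 (limma adjusted p = 0.0268).

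Enolase was more than 99% Eno1, with 605, 423 and 511 FPKM in the IFN-γ cultures, 664, 509.5 and 559 FPKM in the IL-27 cultures, and 741, 695 and 1009 FPKM in the IL-33 cultures. Both the IFN-γ and the IL-27 libraries were below all IL-33 libraries. The log2 fold change was -0.66 ± 0.20 with IFN-γ (limma adjusted p = 0.139, and 0.0242 with the block) and -0.49 ± 0.20 with IL-27 (limma adjusted p = 0.468). Eno3, the muscle form, was at 0.753 to 4.94 FPKM. Pkm2, the pyruvate kinase gene that makes the M1 and M2 forms by splicing, had 959, 1115 and 1110 FPKM in the IFN-γ cultures, 1290, 1472 and 1365 FPKM in the IL-27 cultures, and 1281, 1395 and 1866 FPKM in the IL-33 cultures. Its values are per gene and do not separate the splice forms. The IFN-γ libraries were the lowest, with a log2 fold change of -0.50 ± 0.17 relative to IL-33 (limma adjusted p = 0.195, and 0.0331 with the block). The blocked calls of Eno1 and Pkm2 were lost without IL-33 replicate 3 (limma adjusted p = 0.0615 and 0.0715). Gapdh, Aldoa, Pgk1, Eno1, Ldha and similar genes have processed pseudogenes, and how reads shared with these copies were assigned is not given in the sources used here.

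Lactate dehydrogenase has a muscle-type subunit, Ldha, which favours making lactate and is induced by HIF and MYC, and a heart-type subunit, Ldhb, which favours the reverse reaction. Ldhb rose with IFN-γ, while Ldha was lower in every IFN-γ library than in any IL-33 library and passed the threshold only with the block and with all libraries. Ldhb (mm9, chr6:142438769-142456477, minus strand) had 22.3, 24.3 and 32.1 FPKM in the IFN-γ cultures, 13.3, 17.2 and 17.7 FPKM in the IL-27 cultures, and 5.62, 6.86 and 9.2 FPKM in the IL-33 cultures. The groups were fully separated, IFN-γ highest and IL-33 lowest. By the estimated depth, Ldhb rested on about 7 fragments at its lowest and 38 at its highest. Its level in the IL-33 cultures, and the ratios and folds taken to it, are therefore imprecise. Ldhb rose 3.33-fold with IFN-γ, a log2 fold change of 1.73 ± 0.24 (limma adjusted p = 0.00394, and 0.000447 with the block), and the call held on leaving out each of the 9 libraries in turn, with adjusted p at most 0.0214. With IL-27 the log2 fold change was 1.06 ± 0.24 (limma adjusted p = 0.0829, and 0.00706 with the block), higher in 3 of 3 same-numbered pairs. With the block and without all libraries numbered 3 that limma adjusted p was 0.0604. Ldha had 1361, 1651 and 1595 FPKM in the IFN-γ cultures, 1890, 2242 and 2311 FPKM in the IL-27 cultures, and 1823, 2066 and 3065 FPKM in the IL-33 cultures. Its IFN-γ libraries lay below all others, and the log2 fold change was -0.56 ± 0.21 with IFN-γ (limma adjusted p = 0.222, and 0.0315 with the block) and -0.08 ± 0.21 with IL-27 (limma adjusted p = 0.954). In the blocked fit without IL-33 replicate 3 the change with IFN-γ was -0.39 and the call was lost (limma adjusted p = 0.0513, and 0.101 without all libraries numbered 3).

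The ratio of the subunit genes, taken within a library, sorted the 9 libraries by culture. Ldha was 61.0, 68 and 49.7 times Ldhb by FPKM in the IFN-γ cultures, 142, 131 and 130.5 times in the IL-27 cultures, and 324.5, 301 and 333 times in the IL-33 cultures. The groups did not overlap, and IL-33 replicate 3, which stood apart for many members, had a log2 ratio of 8.23 beside 8.11 and 8.04 in the other IL-33 libraries. On the scale of log2(FPKM + 1) the ratio differed by -2.30 between IFN-γ and IL-33 cultures, by -1.14 between IL-27 and IL-33 and by -1.15 between IFN-γ and IL-27. Each gave a two-sided exact permutation p of 0.1, the smallest that 3 against 3 libraries allow, and 0.2 after Benjamini-Hochberg adjustment over the 6 ratio comparisons. It was lower in 3 of 3 same-numbered pairs in each, with an exact sign-flip p of 0.25, the smallest that 3 pairs allow. Even so, Ldhb was at most 1.97% of the summed lactate dehydrogenase FPKM in any library.

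**Figure D3:**
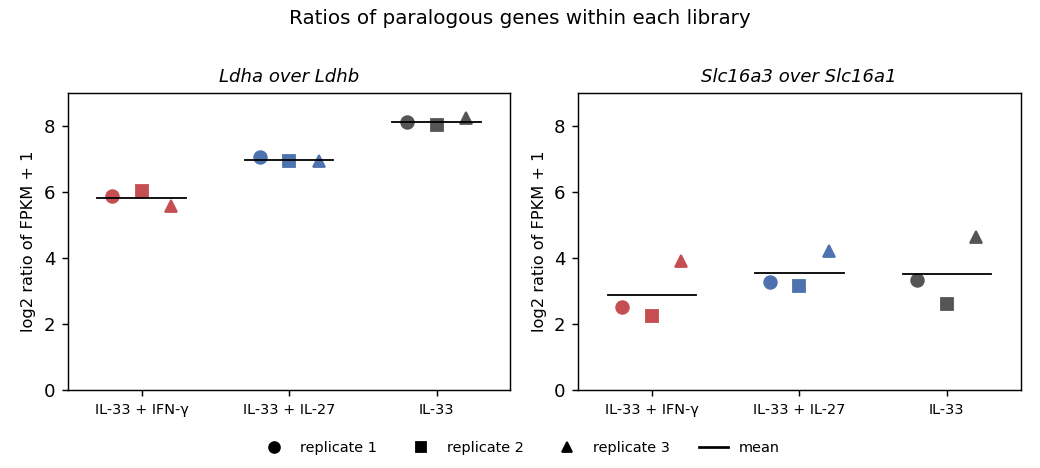
Log2 ratio of FPKM + 1 of Ldha over Ldhb (left) and of Slc16a3 over Slc16a1 (right) in each of the 9 libraries, with marker shape for the replicate number and a line for the group mean. The Ldha over Ldhb ratio is 5.59 to 6.03 in IFN-γ, 6.95 to 7.05 in IL-27 and 8.04 to 8.23 in IL-33 libraries without overlap, while the Slc16a3 over Slc16a1 ratios overlap between all groups, with IFN-γ lowest within each replicate number.

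Lactate leaves the cell through Slc16a3 (MCT4), the high-capacity exporter of glycolytic cells and a HIF target, and through Slc16a1 (MCT1), which carries lactate both ways. Slc16a3 (mm9, chr11:120809794-120822182, plus strand) had 87.05, 128 and 141.5 FPKM in the IFN-γ cultures, 197, 197 and 219 FPKM in the IL-27 cultures, and 353, 246 and 423 FPKM in the IL-33 cultures. Again the 3 groups were separated, IFN-γ lowest, IL-27 between, IL-33 highest. Slc16a3 fell 2.84-fold with IFN-γ, a log2 fold change of -1.51 ± 0.24 (limma adjusted p = 0.00805, and 0.00267 with the block). Leaving out each library in turn kept the call, with adjusted p at most 0.0362; it was 0.0556 without all 3 libraries numbered 3, and 0.0427 there with the block. With IL-27 the log2 fold change was -0.70 ± 0.24 (limma adjusted p = 0.333), lower in 3 of 3 same-numbered pairs. Between IFN-γ and IL-27 it was -0.81 ± 0.24 (limma adjusted p = 0.975).

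Slc16a1 had 14.4, 25.9 and 8.5 FPKM in the IFN-γ cultures, 19.5, 21.2 and 10.9 FPKM in the IL-27 cultures, and 34.2, 39.3 and 16.1 FPKM in the IL-33 cultures. Here the replicate 3 library was the lowest of each group, and the groups overlapped. Its log2 fold change was -0.88 ± 0.44 with IFN-γ (limma adjusted p = 0.390, and 0.0195 with the block, but 0.0520 with the block and without IL-33 replicate 3) and -0.72 ± 0.44 with IL-27 (limma adjusted p = 0.693, and 0.0603 with the block). Slc16a3 was 83.1% to 94.3% of the summed FPKM of the pair in IFN-γ libraries, 90.3% to 95.3% in IL-27 libraries and 86.2% to 96.3% in IL-33 libraries. The log2 ratio of the 2 carriers differed by -0.63 between IFN-γ and IL-33 cultures, by 0.02 between IL-27 and IL-33 and by -0.65 between IFN-γ and IL-27, with two-sided exact permutation p of 0.5, 1 and 0.3 (0.6, 1 and 0.45 after adjustment over the same 6), a test that does not use the pairing. Within numbers 1, 2 and 3 the ratio was lower with IFN-γ than with IL-33 in every pair (-0.81, -0.36 and -0.72), and than with IL-27 (-0.75, -0.90 and -0.30), with an exact sign-flip p of 0.25 for both, again the smallest possible. For IL-27 over IL-33 the pairs differed in sign.

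**Figure D4:**
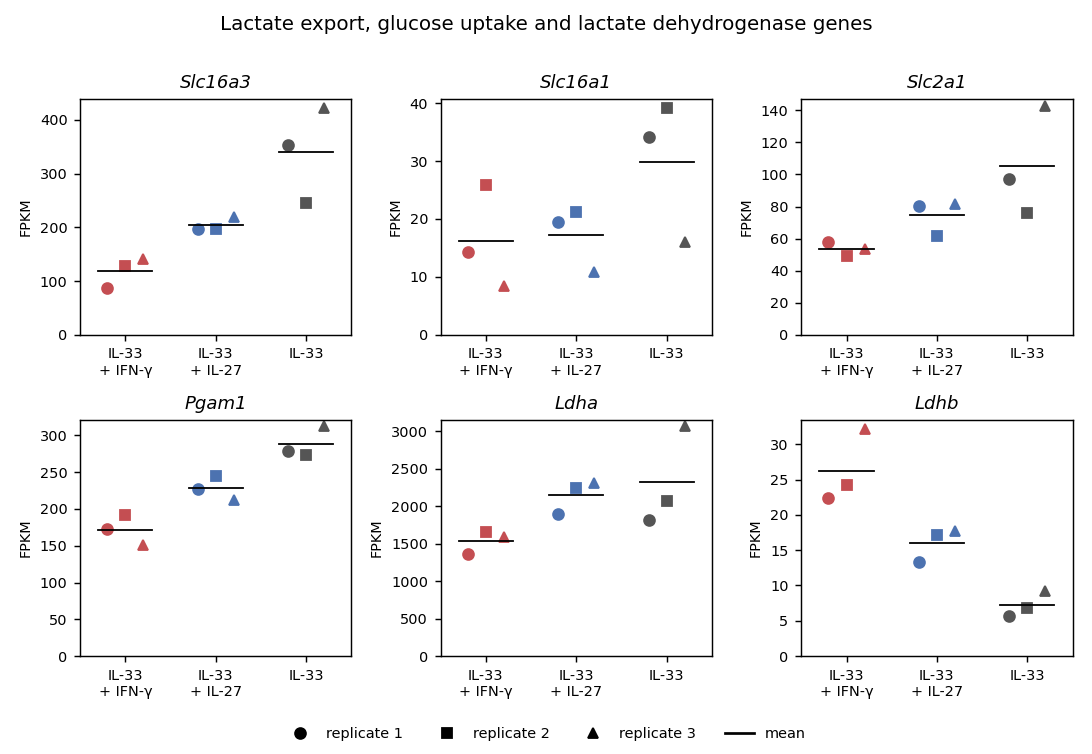
FPKM (vertical axes from 0, scaled for each gene) of Slc16a3, Slc16a1, Slc2a1, Pgam1, Ldha and Ldhb in every library of the IFN-γ, IL-27 and IL-33 cultures, with marker shape for the replicate number and a line for the group mean. Slc16a3, Pgam1 and Ldhb separate the 3 groups completely, Ldhb in the opposite order to the other 2.

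The kinases Pdk1 and Pdk3 switch off pyruvate dehydrogenase and so hold pyruvate back from oxidation in the mitochondria. Pdk1 had 17.4, 23.1 and 24.6 FPKM in the IFN-γ cultures, 19.7, 26.6 and 37.7 FPKM in the IL-27 cultures, and 20.2, 18.7 and 43.5 FPKM in the IL-33 cultures. In each group the replicate 3 library was highest, and the groups overlapped. Its log2 fold change was -0.24 ± 0.34 with IFN-γ, or 0.14 without IL-33 replicate 3, and 0.08 ± 0.34 with IL-27. Pdk3 was at 23.1 to 24.8 FPKM with IFN-γ, 12.1 to 28.4 FPKM with IL-27 and 20.4 to 37.4 FPKM with IL-33.

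Among the regulators of the pathway, Hif1a, which encodes the oxygen-regulated HIF subunit, had 64.6, 115 and 118 FPKM in the IFN-γ cultures, 120, 152 and 109 FPKM in the IL-27 cultures, and 67.6, 79.3 and 58.1 FPKM in the IL-33 cultures. All IL-27 libraries were above all IL-33 libraries, while IFN-γ replicate 1 was within the IL-33 range. With IL-27 the log2 fold change was 0.88 ± 0.25, and 0.82, 0.93 and 0.90 within numbers 1, 2 and 3. It passed only with the block (limma adjusted p = 0.214, and 0.0470 with the block, but 0.162 with the block and without IL-33 replicate 3). With IFN-γ it was 0.49 ± 0.25 (limma adjusted p = 0.401). Hif1a mRNA does not measure HIF-1α protein, whose level also depends on its breakdown.

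Egln1 and Egln3 encode prolyl hydroxylases that mark HIF-1α for destruction and are themselves HIF targets. Egln1 had 16.1, 24.7 and 28.0 FPKM in the IFN-γ cultures, 27.3, 29.5 and 47.0 FPKM in the IL-27 cultures, and 21.8, 23.8 and 51.9 FPKM in the IL-33 cultures. Egln3 had 2.04, 4.57 and 8.6 FPKM in the IFN-γ cultures, 9.18, 11.7 and 27.7 FPKM in the IL-27 cultures, and 2.47, 6.40 and 88.4 FPKM in the IL-33 cultures. For both, replicate 3 was the highest of each group. The log2 fold change of Egln3 was -1.27 ± 1.02 with IFN-γ (limma adjusted p = 0.617), lower in all 3 same-numbered pairs (-0.19, -0.41 and -3.22). It was 0.11 without IL-33 replicate 3 and -0.30 without all libraries numbered 3. For IL-27 over IL-33 it was 0.23 ± 1.02 (limma adjusted p = 0.976). All Egln3 values of IFN-γ libraries were below those of IL-27 libraries.

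None of the 5 HIF targets outside metabolism was called without the block. That rule called at most 0.717% of all genes lower and 2.19% higher, so no call among 5 says little about them. With IFN-γ all 5 had negative log2 fold changes, with a median of -0.96, which was -0.09 without IL-33 replicate 3 and -0.20 without all libraries numbered 3. Bnip3, a mitochondrial receptor for autophagy, had 22.1, 38.2 and 36.2 FPKM in the IFN-γ cultures, 35.9, 51.0 and 99.3 FPKM in the IL-27 cultures, and 33.4, 33.6 and 206.7 FPKM in the IL-33 cultures. Apart from IL-33 replicate 3, its IL-33 values lay within the IFN-γ range. The log2 fold change of -0.96 ± 0.65 (limma adjusted p = 0.542) was -0.09 without that library, and within numbers 1, 2 and 3 it was -0.57, 0.18 and -2.48. Ndrg1, a stress-response gene induced by HIF, had 4.51, 5.61 and 6.9 FPKM in the IFN-γ cultures, 7.30, 10.8 and 20.1 FPKM in the IL-27 cultures, and 1.51, 4.16 and 36.2 FPKM in the IL-33 cultures. IL-33 held both its lowest values and its highest, and its difference with IFN-γ changed sign between numbers, at 1.13, 0.36 and -2.24.

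Vegfa, the vascular growth factor, and P4ha1, a collagen prolyl hydroxylase subunit, were lower with IFN-γ in every number and did not rest on replicate 3 alone for that direction. Vegfa, which rested on about 6 fragments at its lowest, had 1.97, 1.81 and 3.4 FPKM in the IFN-γ cultures, 2.12, 2.77 and 5.2 FPKM in the IL-27 cultures, and 8.47, 3.88 and 11.4 FPKM in the IL-33 cultures. The IFN-γ libraries were below all IL-33 libraries. The log2 fold change was -1.32 ± 0.41 with IFN-γ (limma adjusted p = 0.150, and 0.0250 with the block, but 0.0924 with the block and without IL-33 replicate 3), and it was -0.99 ± 0.41 with IL-27 (limma adjusted p = 0.468). P4ha1 ranged over 8.42 to 11.8 FPKM with IFN-γ, 8.87 to 18.8 FPKM with IL-27 and 14.3 to 31.9 FPKM with IL-33, with a log2 fold change over IL-33 of -0.99 ± 0.33 for IFN-γ (limma adjusted p = 0.185, and 0.0484 with the block, but 0.156 with the block and without IL-33 replicate 3). Mxi1, an antagonist of MYC, was at 9.9 FPKM in IL-33 replicate 3 and at most 4.26 FPKM elsewhere.

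**Figure D5:**
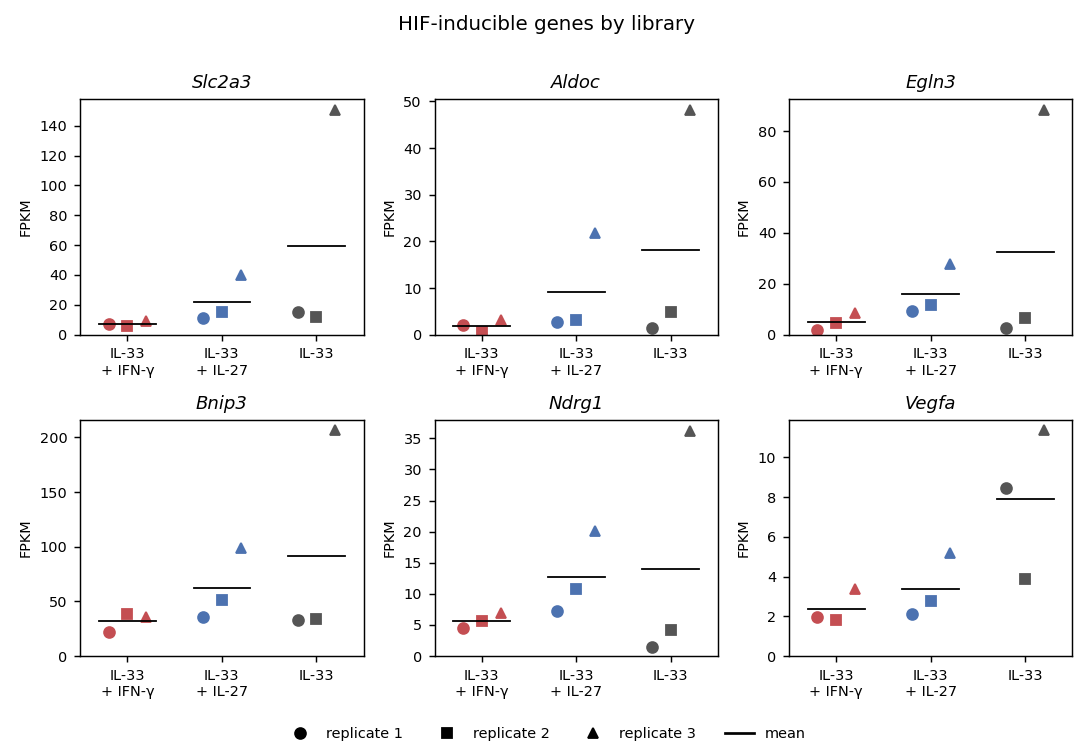
FPKM (vertical axes from 0, scaled for each gene) of Slc2a3, Aldoc, Egln3, Bnip3, Ndrg1 and Vegfa in every library of the IFN-γ, IL-27 and IL-33 cultures, with marker shape for the replicate number and a line for the group mean. IL-33 replicate 3 is the highest point in every panel and IL-27 replicate 3 the next in all but Vegfa, where IL-33 replicate 1 (8.47 FPKM) is above it (5.2 FPKM).

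The neighbouring pathways held few calls, and so did all genes. Limma called 0.717% of all tested genes lower and 2.19% higher with IFN-γ, and 0.118% and 0.908% with IL-27. With the block the shares were 4.66% and 6.51% with IFN-γ, and 1.78% and 3.37% with IL-27. At these shares a short list without a call says little about its pathway. Of 22 tested HIF targets that are not members, none was called in limma in the comparison with IFN-γ; the median log2 fold change was -0.39, or -0.06 without IL-33 replicate 3, which was the highest library for 12 of the 22. Ero1l, an oxidase of protein folding in the endoplasmic reticulum, had 120, 164 and 197 FPKM in the IFN-γ cultures, 218, 350 and 536 FPKM in the IL-27 cultures, and 333.5, 540 and 1198 FPKM in the IL-33 cultures. The IFN-γ libraries were below all others, with a log2 fold change of -1.92 ± 0.46 relative to IL-33 (limma adjusted p = 0.0566, 0.00101 with the block, and 0.00197 with the block and without IL-33 replicate 3). Car12, a carbonic anhydrase, was also called lower with the block, with both IFN-γ (limma adjusted p = 0.00788) and IL-27 (limma adjusted p = 0.0221).

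Of the 7 pentose phosphate genes none was called in limma; with the block and IFN-γ, Pgd (-0.71 ± 0.17; limma adjusted p = 0.0649, and 0.00659 with the block) and Tkt (-0.52 ± 0.18; limma adjusted p = 0.195, and 0.0477 with the block) were called lower, the enzymes of its oxidative and sugar-exchanging arms. None of 6 genes of the HIF machinery or of 5 for glycogen and hexosamines was called, with or without the block. No gene of the 16 of the tricarboxylic acid cycle or of the 10 tested for pyruvate entry into mitochondria was called in any comparison, with or without the block, and their medians with IFN-γ were 0.02 and -0.06. At the shares of all genes given above, lists of this size may hold no call. IL-33 replicate 3 was the highest library for 2 of the 16 and for none of the 10, against 13.2% of all tested genes. Among 10 other tested sugar carriers and glycolytic genes, Slc2a9, a urate and sugar transporter, rose with IFN-γ to 12.9, 10.0 and 8.6 FPKM, against 3.25, 2.12 and 3.6 FPKM in IL-33 cultures (1.53 ± 0.33; limma adjusted p = 0.0419). Without IL-33 replicate 3 the log2 fold change was 1.64, and the adjusted p, from fewer libraries, was 0.0653 in limma. Ldhd, the mitochondrial D-lactate dehydrogenase, had 3.51, 2.80 and 8.2 FPKM in the IFN-γ cultures, 14.3, 10.2 and 17.7 FPKM in the IL-27 cultures, and 0.504, 0.923 and 2.5 FPKM in the IL-33 cultures. It rose with IL-27 (2.77 ± 0.43; limma adjusted p = 0.0150), and with IFN-γ it passed only with the block (1.32 ± 0.43; limma adjusted p = 0.164, and 0.0181 with the block). At the estimated depth, 3 fragments in a transcript of 2 kb are worth 1.55 to 1.72 FPKM. The IL-33 levels of Slc2a9 and Ldhd, and the folds taken to them, are therefore imprecise. Slc2a6, a glucose transporter, was called lower with IL-27 with the block alone (limma adjusted p = 0.0264). Without IL-33 replicate 3, the blocked calls of Tkt and Ldhd with IFN-γ and of Car12 with IL-27 were lost (limma adjusted p = 0.141, 0.0505 and 0.0825). Of 14 tested genes of mTORC1 and MYC signalling, none was called without the block. With the block Mxd1, an antagonist of MYC, was called higher with IFN-γ (limma adjusted p = 0.00761) and with IL-27 (limma adjusted p = 0.00456). Both blocked calls also held without IL-33 replicate 3. Its log2 fold changes, with the SE of the fit without the block, were 1.72 ± 0.62 with IFN-γ and 2.21 ± 0.62 with IL-27. Myc itself averaged 92.5 ± 26.8 FPKM with IFN-γ, 83.3 ± 38.6 FPKM with IL-27 and 88.5 ± 26.2 FPKM with IL-33 (SD, n = 3 each).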

How the data were processed

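RNA was sequenced from 9 libraries of cultured mouse ILC2s, made with TruSeq RNA kits (v2) for low input, per the labels' protocols. Bowtie2 2.1.0, TopHat2 2.0.8, Cufflinks 2.1.1 and build mm9 are named per the submitters' processing notes, without roles. The deposited values are FPKM per gene, a unit not written in the tables and taken from Cufflinks being named and from the values; no read counts were used here, and the depth given is an estimate from the steps between low values. The kit does not mark strand, so overlapping antisense transcripts cannot be separated. Replicate 3 tables give 1 decimal. Spreadsheet dates had replaced 25 gene symbols, none of them a member. The 35 members and the other gene lists, roles and markers were chosen with earlier results of these data known. The 11014 genes averaging 1 FPKM or more were fitted with limma 3.58.1 in R 4.3.3 on log2(FPKM + 1), all 3 groups in 1 model with an intensity trend and no covariate. Benjamini-Hochberg adjustment ran over all tested genes within a comparison, with a threshold of 0.05. Errors of log2 fold changes are limma's SE from the fit without the block. Folds are antilogs of the log2 fold changes, so the fold of a low gene is understated. Paralogue ratios were tested by exact permutation, and by exact sign flips of the same-numbered differences. Members called in a comparison and the defining members of each role are given in every library, the others by range.

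Deviations from group means correlated at 0.128 to 0.367 between libraries of the same number and at -0.298 to -0.0251 between those of other numbers. The numbers were therefore taken to pair the libraries, from the data and not from a label, and a fit with the number as a block is given beside the other where it changes a call. Alternatives were other pseudocounts, filters, scalings, variance models, the 2 groups alone, the block, and leaving out libraries. The blocked fits without IL-33 replicate 3 or without all libraries numbered 3 were added after that library was seen to stand apart. Promoter windows came from RefSeq (GRCm38.p6). Tables were made in Python 3.11.15 with pandas 2.3.3 and numpy 2.4.6, and figures with matplotlib 3.10.9.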

Additional observations from a re-analysis of the deposited data

How the results depend on the processing

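Of the 33 members, 2 were called lower with IFN-γ relative to IL-33; the count was 1 without the intensity trend and 1 with only the 2 groups fitted (Pgam1 lost in both), 11 with the replicate block, 5 with the block and without IL-33 replicate 3, 0 without all libraries numbered 3, and 1 to 2 on leaving out single libraries. The number called higher with IL-27 was 0, but 2 with the block and 2 with the block and without IL-33 replicate 3. It was 0 again with the block and without all libraries numbered 3. The block changed no other count of called members. The difference in the log2 ratio of Slc16a3 over Slc16a1 between IL-27 and IL-33 cultures, 0.02, was -0.076 with a pseudocount of 5 and between -0.44 and 0.57 on leaving out single libraries. The cause of these shifts was not tested. Ldhb with IFN-γ kept its direction and call in every alternative run. Slc16a3 did so except without all libraries numbered 3, where fewer samples remain. Scaling moved the median log2 fold change of all genes by under 0.1 and changed no count of called members. Depth limits the members under about 5 FPKM, and Ldhb, Slc2a9 and Ldhd in the IL-33 cultures. The deposited values hold no counts from which to give intervals.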
